A study of Strongylocentrotus purpuratus with 4 samples.

Results

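ARS, an arylsulfatase gene of the purple sea urchin Strongylocentrotus purpuratus, was followed as 1 of the 24786 genes with a UMI in the cells kept from 4 single-cell libraries. The libraries came from uninjected embryos at 72 hpf (hours post fertilization), uninjected embryos at 48 hpf, embryos injected with the gcm MO at 48 hpf and embryos injected with the control MO at 48 hpf, with 1 library for each condition. Per the study's methods, the uninjected embryos were enriched for the ectodermal layer during dissociation, whereas the MO (morpholino antisense oligonucleotide, injected at 0.5 mM) libraries were made from whole gastrulae chosen by phenotype. The gcm MO blocks translation of gcm, a transcription factor needed for the specification of pigment cells, and the control MO was designed against a gene of another echinoderm, the bat star Patiria miniata. Each uninjected library had a sequencing lane of its own and the MO libraries shared a lane, so condition and library cannot be told apart in any comparison, nor stage and lane, nor preparation, injection and lane.

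Arylsulfatases are enzymes that release sulfate from sulfate esters. In sea urchin embryos the arylsulfatase gene is a classical marker of the aboral ectoderm, the thin epithelium that covers the side of the embryo away from the mouth. In the related species Hemicentrotus pulcherrimus its protein is found in the extracellular matrix. The aboral ectoderm also makes the SPEC calcium-binding proteins, and it borders the ciliary band, which separates it from the oral ectoderm around the mouth.

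Cells with 400 to 2500 detected genes were kept: 6666 of 8178 deposited cells at 72 hpf, 5170 of 5688 at 48 hpf, 539 of 643 with the gcm MO and 3323 of 3402 with the control MO. Within them, pigment cells were those with at least 3 UMIs (unique molecular identifiers, each standing for 1 captured transcript) and 0.3% of UMIs from LOC588806, LOC592500 and LOC588371 together. Gut cells had at least 3 UMIs of Endo16, a gene of the gut endoderm, and skeletogenic cells at least 5 UMIs of the biomineralization genes SM37, SM50, PM27 and msp130 together. Cells that met none of these rules are called remaining cells. They made up 84% to 89.7% of each library and hold the ectoderm along with any other cells below these limits. Marker UMIs below the limits occur among them, so shallow or weakly marked pigment, gut and skeletogenic cells may be included. No cell at 72 hpf or with the gcm MO met more than 1 rule, and 4 cells at 48 hpf and 5 with the control MO did and were counted apart. The median cell had 1487 UMIs at 72 hpf, 3063.5 at 48 hpf, 3831 with the gcm MO and 2684 with the control MO, and any pair of libraries shared 0 to 14 cell barcodes.

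ARS was an abundant transcript in every library. Over all cells kept, it accounted for 160114 UMIs at 72 hpf, 236036 at 48 hpf, 14548 with the gcm MO and 85354 with the control MO. As a share of all UMIs these were 10965 CPM (UMIs of the gene per 1e6 UMIs of the same cells; exact Poisson 95% interval 10911 to 11019) at 72 hpf and 15347 CPM (15285 to 15409) at 48 hpf. The whole-embryo libraries had 7982 CPM (7853 to 8113) with the gcm MO and 9163 CPM (9102 to 9225) with the control MO. With 1 library per condition no test across libraries was possible, and every interval covers counting error only.

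The remaining cells had the highest ARS level of the 4 classes in each of the 4 libraries. At 72 hpf, pigment cells had 3606 CPM (3478 to 3737, 652 cells), gut cells 674 CPM (482 to 918, 18 cells), skeletogenic cells 1705 CPM (1386 to 2076, 15 cells) and remaining cells 11497 CPM (11441 to 11554, 5981 cells). At 48 hpf, pigment cells had 4121 CPM (3996 to 4249, 473 cells), gut cells 1778 CPM (1672 to 1889, 118 cells), skeletogenic cells 4855 CPM (4416 to 5327, 22 cells) and remaining cells 16840 CPM (16771 to 16909, 4553 cells). Pigment cells thus carried ARS at 0.314 (0.302 to 0.325) of the level of remaining cells at 72 hpf and at 0.245 (0.237 to 0.252) at 48 hpf.

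The whole-embryo libraries had the same class on top and lower levels in pigment cells. With the gcm MO, the 6 pigment cells held 4 ARS UMIs (314 CPM, 85.5 to 803), the 67 gut cells 507 (2064 CPM, 1888 to 2252) and the 464 remaining cells 14037 (9017 CPM, 8868 to 9167). The 2 skeletogenic cells of that library had 0 ARS UMIs, where 3 counts would have been 406 CPM. With the control MO, pigment cells had 1485 CPM (1373 to 1604, 201 cells), gut cells 823 CPM (769 to 879, 273 cells), skeletogenic cells 896 CPM (755 to 1056, 52 cells) and remaining cells 10947 CPM (10873 to 11021, 2792 cells). The intervals of gut and skeletogenic cells overlapped in the control MO library, and the pigment level was 0.136 (0.125 to 0.147) of that in remaining cells.

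**Figure D1:**
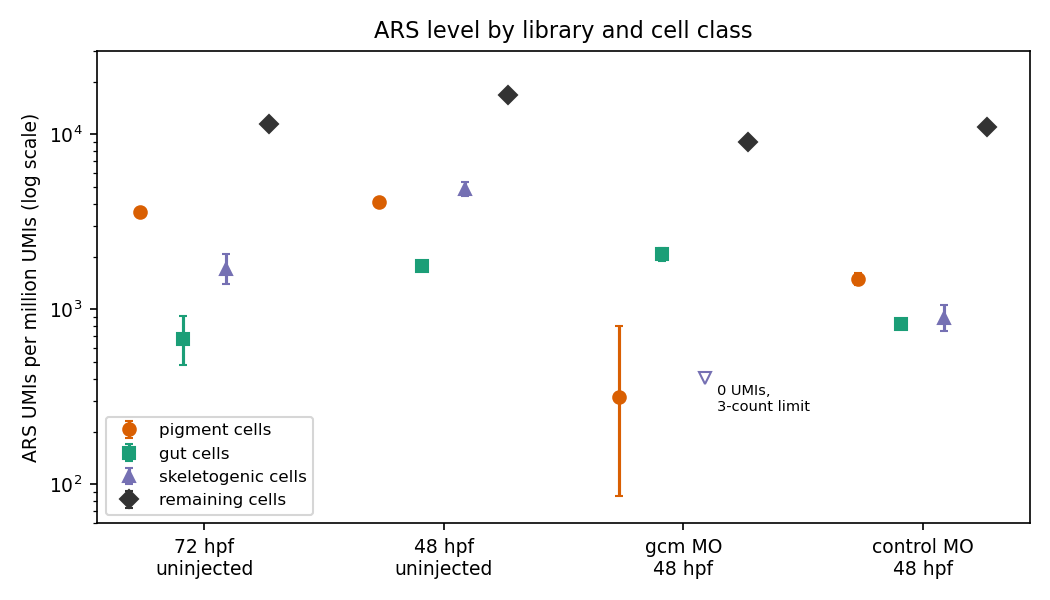
ARS level, in CPM on a log scale, for pigment, gut, skeletogenic and remaining cells of the 72 hpf, 48 hpf, gcm MO and control MO libraries. Points are levels of summed UMIs, bars are exact Poisson 95% intervals, and the open triangle is the 3-count limit of 406 CPM for the 2 gcm MO skeletogenic cells without an ARS UMI. The remaining cells, at 9017 to 16840 CPM, lie above the other classes in each library.

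The share of ARS that a few cells carried differed between classes and libraries. At 48 hpf, the 30 pigment cells in which ARS made up at least 1% of UMIs held 2892 of the 4107 ARS UMIs (70.4%) of that class, and the 443 others had 1403 CPM. At 72 hpf, the 19 such pigment cells held 1198 of 2998 UMIs (40%), and the 633 others had 2330 CPM. In the skeletogenic cells at 48 hpf, 1 cell held 344 of 447 UMIs, and without it the class stood at 1194 CPM. In the gut cells with the gcm MO, 4 cells held 447 of 507 UMIs (88.2%), 36 cells had none, and the 63 cells under 1% had 271 CPM. In the control MO library, the 4 pigment cells at or above 1% held 190 of 650 UMIs (29.2%) and the 3 gut cells 200 of 869 (23%). The tenth of pigment cells with most ARS UMIs held 77.4% of them there, 77.5% at 48 hpf and 58.3% at 72 hpf. At 72 hpf no gut cell reached 1%, and the 5 highest gut cells held 19 of 40 UMIs.

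The pigment cells rich in ARS also carried more transcripts of other aboral genes and had more UMIs. At 48 hpf, the 30 cells had a median of 4931 UMIs and 5142 CPM of SPEC1, a calcium-binding protein of the aboral ectoderm, against 1703 UMIs and 650 CPM in the 443 others. Their summed pigment genes stood at 9075 CPM, against 28136 CPM in the others. At 72 hpf, SPEC1 stood at 3476 CPM in the 19 cells and 884 CPM in the 633 others. Scrublet, which scores each cell by its likeness to simulated mixtures of 2 cells, placed 24 of the 30 cells at 48 hpf (80%) and 11 of the 19 at 72 hpf (57.9%) above the 95th percentile of the scores of their library, against 28 of 443 (6.32%) and 32 of 633 (5.06%) of the others. The part that cells captured together had in these levels was not tested. Without the cells above that percentile, the pigment level relative to remaining cells was 0.22 at 72 hpf, 0.0852 at 48 hpf and 0.0428 with the control MO.

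A low ARS count was widespread. After each cell was thinned to 500 UMIs, an ARS UMI was found at 72 hpf in 67.3% of pigment cells, 38.9% of gut cells, 40% of skeletogenic cells and 82.3% of remaining cells. At 48 hpf these shares were 55.4%, 42.4%, 45.5% and 82.7%. In the control MO library they were 26.9%, 26%, 21.2% and 76%, and in the gcm MO library 33.3%, 19.4%, 0% and 71.3%, where the first rests on 6 cells and the 0% on 2. Without thinning, 92.4% of gut cells (median 5344 UMIs) and 97% of remaining cells (median 3203 UMIs) had an ARS UMI at 48 hpf. Gut and skeletogenic cells are not known to make ARS, and their shares are given as the level of comparison. The Clopper-Pearson 95% intervals of the thinned shares overlapped between pigment cells and gut or skeletogenic cells in each library, for example 63.6% to 70.9% in pigment cells and 17.3% to 64.3% in the 18 gut cells at 72 hpf. Such overlap does not measure the difference between the classes, which was not tested. The levels at 72 hpf were farther apart, at 3606 CPM in pigment cells, or 2330 CPM in those under 1%, and 674 CPM (482 to 918) in gut cells. The share intervals of remaining cells, such as 81.4% to 83.3% at 72 hpf, lay above those of gut cells in each library.

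The mixture of aboral transcripts differed between classes. At 72 hpf, pigment cells had 338 ARS UMIs per 100 SPEC1 UMIs (313 to 364) and gut cells 286 (152 to 569), against 489 (483 to 495) in remaining cells. At 48 hpf the values were 333 (312 to 355) in pigment cells, 281 (249 to 317) in gut cells and 409 (405 to 413) in remaining cells. In the control MO library they were 126 (112 to 141) in pigment cells, 123 (111 to 136) in gut cells and 161 (159 to 163) in remaining cells. The intervals of pigment and gut cells overlapped in these 3 libraries, only narrowly at 48 hpf, and their difference was not tested. Pigment cells lay below remaining cells in each. The other pairs did not all follow this order: gut cells with the gcm MO had 167 (144 to 193), against 162 (158 to 166) in remaining cells, and skeletogenic cells at 48 hpf had 784 (594 to 1052). Per 100 UMIs of Sdc, a cell-surface proteoglycan, the intervals of pigment and gut cells did not overlap in these 3 libraries. Pigment cells had 205 ARS UMIs (192 to 218), gut cells 105 (65.8 to 169) and remaining cells 268 (266 to 271) at 72 hpf. At 48 hpf the values were 284 (267 to 302) in pigment cells, 139 (126 to 153) in gut cells and 397 (393 to 401) in remaining cells, and with the control MO 107 (95.4 to 119), 58.6 (53.8 to 63.7) and 215 (212 to 217) in the same classes. The part of free transcripts in these counts was not tested.

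Within the remaining cells ARS was graded over a wide range, with most of its transcripts in a minority of the cells. The median cell had 0.636% of its UMIs from ARS at 72 hpf, 0.788% at 48 hpf, 0.569% with the gcm MO and 0.77% with the control MO. The highest cells reached 8.22% at 72 hpf, 8.88% at 48 hpf, 5.71% with the gcm MO and 7.06% with the control MO. Cells in which ARS made up at least 1% of UMIs were 38.5% (Clopper-Pearson 95% interval 37.2 to 39.7) of remaining cells at 72 hpf and 46.8% (45.3 to 48.3) at 48 hpf, and they were 39.9% (35.4 to 44.5) with the gcm MO and 44.5% (42.7 to 46.4) with the control MO. These cells held 88% of the ARS UMIs of remaining cells at 72 hpf, 92.5% at 48 hpf, 85.5% with the gcm MO and 86.2% with the control MO.

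The levels on either side of 1% are a description only, since ARS itself set the groups and caps the level of the lower one. In cells at or above 1%, ARS stood at 20968 CPM at 72 hpf, against 28906 CPM at 48 hpf, and at 16318 CPM with the gcm MO and 21308 CPM with the control MO. In cells under 1% the levels were 2657 CPM at 72 hpf, 2737 CPM at 48 hpf, 2475 CPM with the gcm MO and 2704 CPM with the control MO. Cells at or above 5% were 25 of 5981 (0.418%) at 72 hpf and 108 of 4553 (2.37%) at 48 hpf, and 2 of 464 with the gcm MO and 12 of 2792 with the control MO. No cell without an ARS UMI can be called negative at this depth, and such cells were 4.03% of remaining cells at 72 hpf, 3.03% at 48 hpf, 13.4% with the gcm MO and 7.52% with the control MO.

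**Figure D2:**
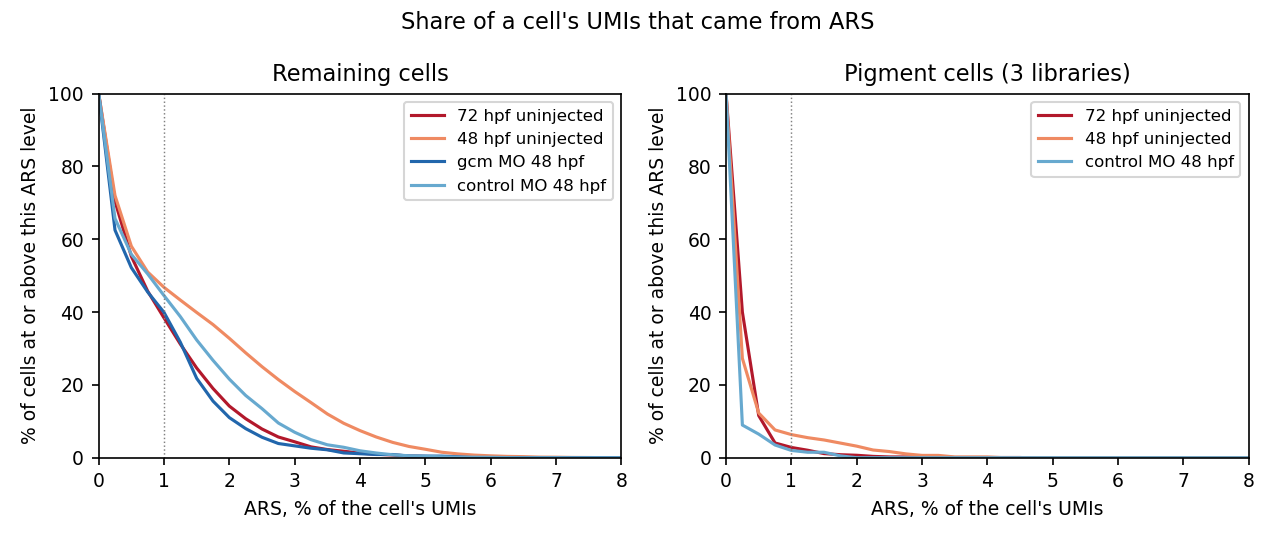
Share of cells, in percent, at or above each ARS level, given as the percent of the cell's UMIs, for remaining cells of the 4 libraries (left) and pigment cells of 3 libraries (right, without the 6 gcm MO pigment cells). The dotted line marks 1%, which 38.5% of remaining cells reached at 72 hpf, 46.8% at 48 hpf, 39.9% with the gcm MO and 44.5% with the control MO, and the 48 hpf curve runs farthest to the right.

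ARS was lowest in the shallowest cells of the uninjected and gcm MO libraries, and beyond that it did not follow depth in every library. Remaining cells were split by their UMIs into 4 sets of equal size. From the shallowest to the deepest set, ARS stood at 5386, 8089, 12622 and 12624 CPM at 72 hpf and at 7366, 17447, 18577 and 16813 CPM at 48 hpf. With the gcm MO the sets had 6977, 12350, 9000 and 8050 CPM, highest in the second. With the control MO they had 12173, 12302, 10155 and 10207 CPM, with the lower levels in the deeper sets.

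Most other aboral ectoderm genes stood at higher levels in cells rich in ARS, with Tbx2/3 lower in the control MO library, and the oral ectoderm genes compared stood at lower levels. Remaining cells with ARS at or above 1% of UMIs (ARS-rich) were set against those under 0.1% (ARS-poor) within each library, with ARS left out of the totals. Of the 11 aboral ectoderm genes found in the files, those with at least 200 UMIs over both groups were compared, which left out Msx and cyiiib in each library and Hbox7, IrxA and Dlx in the MO libraries. At 72 hpf 8 of 9 were past 2-fold higher, against 15.7% of the 4174 genes compared. At 48 hpf 9 of 9 were, against 15.5% of 4228. With the gcm MO 5 of 6 were, against 23.0% of 964, and with the control MO 5 of 6, against 17.2% of 2979. The median ratio of these genes was 6.25 at 72 hpf, 6.48 at 48 hpf, 10.6 with the gcm MO and 8.16 with the control MO, and over all genes compared it was 0.72, 0.842, 1.14 and 0.883 in the same order.

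SPEC1 differed widely between ARS-rich and ARS-poor cells. It stood at 3948 CPM in ARS-rich and 283 CPM in ARS-poor cells at 72 hpf, a ratio of 13.9 (13 to 15), and at 7304 and 315 CPM at 48 hpf, a ratio of 23.2 (21.4 to 25.1). With the gcm MO it stood at 9370 CPM in ARS-rich and 444 CPM in ARS-poor cells, and with the control MO at 12794 and 580 CPM. Its relative spec2d had a ratio of 19.8 (16.3 to 24.4) at 72 hpf, 49.3 (32.2 to 79.7) at 48 hpf and 44.2 (26.3 to 81.1) with the control MO. Its ARS-poor level with the gcm MO rested on 2 UMIs, and the ratio of 63.4 (17.3 to 527) is imprecise. Sdc, the syndecan proteoglycan of the cell surface, had ratios of 6.06 at 72 hpf, 3.19 at 48 hpf, 2.36 with the gcm MO and 2.48 with the control MO. Sdc was thus well above 0 in ARS-poor cells too, at 1086 to 2878 CPM.

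Among the transcription factors of the aboral ectoderm, NK2.2 was past 2-fold higher in ARS-rich cells in the 4 libraries and Tbx2/3 at 48 hpf only. NK2.2 stood at 142 CPM in ARS-rich and 25.1 CPM in ARS-poor cells at 72 hpf and at 363 and 38.6 CPM at 48 hpf, and its ratio was 8.7 (5.97 to 13.1) with the gcm MO and 6.77 (5.56 to 8.31) with the control MO. Hbox7 and Dlx, both homeobox factors, had ratios of 11.8 and 6.14 at 72 hpf and 6.39 and 12.5 at 48 hpf. The ratio of Tbx2/3, a T-box factor, was 1.46 (1.32 to 1.61) at 72 hpf, 2.27 (1.93 to 2.7) at 48 hpf, 1.48 (1.12 to 1.98) with the gcm MO and 0.699 (0.589 to 0.83) with the control MO. Relative to the median of all genes it was 2.03, 2.7, 1.3 and 0.791, so the control MO library was the exception under either scale. The actin gene cyiiib had 0 UMIs in both groups of each library, and reads of near-identical actin genes may not have been assignable to it.

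The oral ectoderm and apical plate genes compared were lower in ARS-rich cells. FoxA, a forkhead factor of the oral ectoderm and gut, stood at 46.9 CPM in ARS-rich and 1129 CPM in ARS-poor cells at 48 hpf (ratio 0.0416, 0.0369 to 0.0466), and its ratio was 0.0307 (0.0225 to 0.041) with the control MO. CHRD, the BMP inhibitor chordin, had ratios of 0.053 at 48 hpf and 0.0179 with the control MO. Each oral ectoderm gene with enough UMIs was past 2-fold lower: 1 of 1 at 72 hpf, 3 of 3 at 48 hpf, 1 of 1 with the gcm MO and 3 of 3 with the control MO. The share of all genes past 2-fold lower was 29.5% at 72 hpf, 20.8% at 48 hpf, 25.4% with the gcm MO and 24.2% with the control MO. NK2.1, a homeobox factor of the apical plate, had ratios of 0.0859 at 72 hpf, 0.0598 at 48 hpf and 0.0811 with the control MO.

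The ciliary band list was mixed. hnf6, a cut-homeobox factor of the ciliary band, had ratios of 0.0967 (0.084 to 0.111) at 72 hpf, 0.392 (0.348 to 0.442) at 48 hpf and 0.248 (0.204 to 0.301) with the control MO, and FoxG, a forkhead factor, 0.127, 0.158 and 0.0544. The other genes of the list gave ratios between 0.483 and 2.4, with HMX past 2-fold higher at 48 hpf (2.4, 1.82 to 3.24). The pigment genes compared, LOC588806 and LOC592500, had median ratios of 1.07 at 72 hpf and 1.05 at 48 hpf. Both genes also set the pigment class, so cells rich in them had been removed and these ratios cannot show a difference. The ratio of gcm, which is outside that rule and had under 200 UMIs, was 0.626 (0.408 to 0.969) at 72 hpf. At 48 hpf the gcm ratio was 0.125 (0.0783 to 0.195). hnf6 was highest in the cells between ARS-poor and ARS-rich at 48 hpf and in the MO libraries, but not at 72 hpf. At 48 hpf it stood at 98.1 CPM in cells with ARS at 1 to 5% of UMIs, 530 CPM at 0.1 to 1% and 242 CPM above 0 and under 0.1%. In the same order it stood at 48.9, 321 and 226 CPM with the control MO and at 39.7, 335 and 382 CPM at 72 hpf. With the gcm MO the levels were 30.5, 352 and 258 CPM, and the intervals of the last 2 overlapped. Depth differed between these groups. Cells at 0.1 to 1% had a median of 1663 UMIs at 48 hpf, 1363 with the gcm MO and 926.5 at 72 hpf. Those above 0 and under 0.1% had 4020, 5179 and 3697 in the same order. With the control MO the medians were 2719 and 2836. A shallow cell with 1 ARS UMI can fall in the 0.1 to 1% group through its depth.

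**Figure D3:**
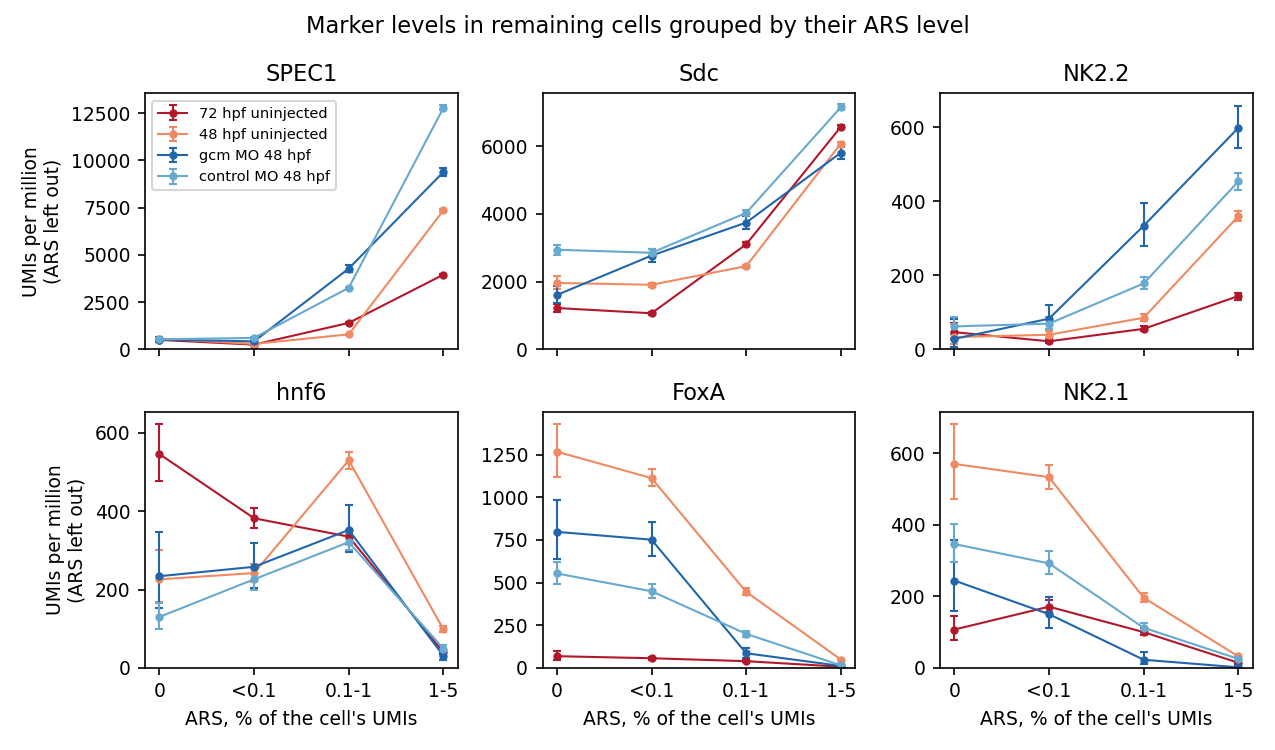
Levels of 6 marker genes, in CPM with ARS left out of the totals, in remaining cells grouped by the percent of their UMIs that came from ARS, for the 4 libraries. Bars are exact Poisson 95% intervals, and the 2 to 108 cells per library at 5% and over are not drawn. Of the groups drawn, SPEC1, Sdc and NK2.2 are highest at 1 to 5%, and FoxA and NK2.1 are lowest there. The level of hnf6 is highest at 0.1 to 1% in the 48 hpf and MO libraries, but not at 72 hpf.

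Most genes of the cell cycle list were lower in ARS-rich cells. The 24 genes of this list were chosen by the study on these libraries, for a difference among pigment cells. Of those with enough UMIs, 22 of 24 were past 2-fold lower at 72 hpf, 21 of 23 at 48 hpf, 4 of 4 with the gcm MO and 16 of 18 with the control MO, where 2 were past 2-fold higher. The 2 genes not past 2-fold lower were LOC752321 and LOC580574 at 72 hpf, at 48 hpf and with the control MO. LOC752321 had ratios of 1.99 (1.53 to 2.63), 2.01 (1.45 to 2.84) and 2.37 (1.72 to 3.31) there. LOC580574 had 0.788 (0.663 to 0.938), 1.22 (0.96 to 1.57) and 2.09 (1.56 to 2.86). Of all genes compared, 29.5% were past 2-fold lower at 72 hpf, 20.8% at 48 hpf, 25.4% with the gcm MO and 24.2% with the control MO. With the control MO, 17.2% were past 2-fold higher. At 72 hpf, at 48 hpf, with the gcm MO and with the control MO, the medians of the list were 0.292, 0.365, 0.204 and 0.269. Those of all genes were 0.72, 0.842, 1.14 and 0.883. CyI, a cytoplasmic actin, had ratios of 0.347 at 72 hpf, 0.311 at 48 hpf, 0.161 with the gcm MO and 0.217 with the control MO. Depth did not differ in 1 direction between these cells. ARS-rich cells had a median of 2792 UMIs and ARS-poor cells 3187 UMIs at 72 hpf, 3510 and 3615 at 48 hpf, 4466 and 4052 with the gcm MO, and 2591 and 2682.5 with the control MO.

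MTa, a metallothionein that binds metal ions, was also at a higher level in ARS-rich cells of each library. In ARS-rich cells it stood at 148515 CPM at 72 hpf, against 9150 CPM in ARS-poor cells, a ratio of 16.2 (16 to 16.4). At 48 hpf it stood at 50976 CPM in ARS-rich and 3604 CPM in ARS-poor cells. With the gcm MO the levels were 41586 and 3287 CPM, and with the control MO 68448 and 5566 CPM. Since MTa took so many of the UMIs of ARS-rich cells, ratios between libraries are also given with MTa out of the totals. egf1, which encodes fibropellin I of the apical extracellular matrix, had ratios of 6.4 at 72 hpf, 2.53 at 48 hpf, 2.16 with the gcm MO and 2.52 with the control MO.

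Across single cells, the gene with the pattern most like that of ARS was LOC582391. Likeness was measured as Pearson r of counts thinned to 500 UMIs across remaining cells, over 1299 genes with at least 200 UMIs in the remaining cells of each library, and genes were ranked by the mean r of the uninjected libraries. LOC582391 had r = 0.680 across 5981 cells at 72 hpf and 0.758 across 4553 cells at 48 hpf. It also ranked first in the libraries that took no part in the ranking, with r = 0.704 across 464 cells with the gcm MO and 0.734 across 2792 cells with the control MO. Cells of 1 library share their dissociation, library and free transcripts, so these values describe the cells and carry no test.

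The genes next in order were LOC100890099 (mean r 0.636), LOC100888959 (0.602), MTa (0.522), LOC584637 (0.502), LOC591437 (0.498), LOC753066 (0.485), LOC585870 (0.467), LOC585042 (0.466) and EGF2 (0.460). RefSeq lists LOC753066 as a long non-coding RNA and the other LOC genes as protein-coding, with no product name in the table used here. The 10 genes held a positive r in the 4 libraries, between 0.204 and 0.525 with the gcm MO for the last 9 of them. EGF2, a gene of EGF-like repeats, had r = 0.567 at 48 hpf and 0.353 at 72 hpf. Sdc came at rank 11 (mean r 0.426) and SPEC1 at rank 14 (0.400), whereas Tbx2/3 came at rank 532 (-0.016). With Spearman rho 8 of the 10 genes stayed in the first 10, and with log-normalized unthinned counts 7 did.

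The lowest r belonged to LOC590740 (mean r -0.336), LOC576654 (-0.314), LOC586345 (-0.307), LOC105443934 (-0.299) and LOC585216 (-0.296). With Spearman rho 5 of the 5 stayed in the last 5, and with log-normalized unthinned counts 2 did. Each r was negative in the 4 libraries, and LOC590740 had the lowest r of the 1299 genes at 48 hpf (-0.375) and with the control MO (-0.437). Their levels in ARS-rich cells were 0.106 to 0.517 of those in ARS-poor cells.

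**Figure D4:**
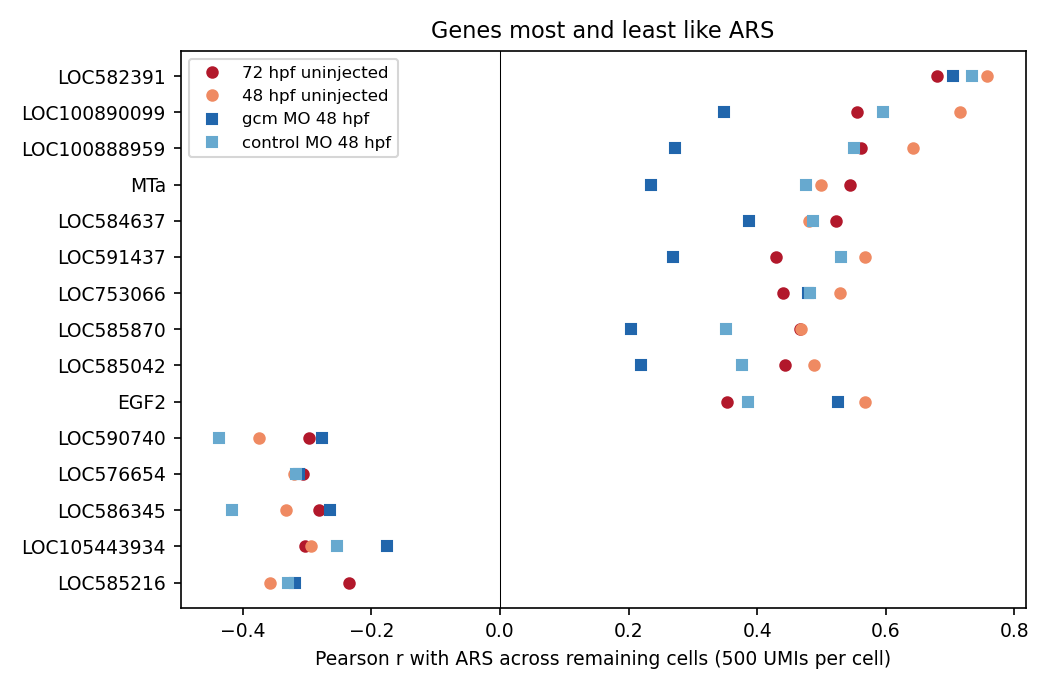
Pearson r with ARS across remaining cells, each thinned to 500 UMIs, for 10 genes at the upper and 5 at the lower end of the ranking by mean r of the uninjected libraries, shown for the 4 libraries. LOC582391 lies farthest to the right in each library, between 0.680 and 0.758, and the gcm MO values of LOC100890099, LOC100888959, MTa, LOC584637, LOC591437, LOC585870 and LOC585042 lie left of those of the other libraries.

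Between stages, ARS was lower at 72 hpf. In remaining cells it stood at 11497 CPM at 72 hpf, against 16840 CPM at 48 hpf, a ratio of 0.683 (0.678 to 0.687). Of 7943 genes compared, 21.2% had a lower ratio than ARS and 36.8% were as far from 1 in either direction. The median ratio of all genes was 0.944, and relative to it ARS was at 0.723. With MTa, at a ratio of 2.95 between the stages, left out of the totals, the ARS ratio was 0.725. In gut cells the ratio was 0.379 (0.269 to 0.52) from 40 and 1048 UMIs, and in skeletogenic cells 0.351 (0.28 to 0.438), where 1 cell at 48 hpf held 344 of 447 UMIs and the ratio without it was 1.43 (1.07 to 1.9), on the other side of 1. Without the cells at or above 1% the gut ratio was 0.822 (0.58 to 1.14). In pigment cells it was 0.875 (0.834 to 0.917), but it became 1.66 (1.54 to 1.79) without the cells at or above 1%, 1.78 without the cells above the 95th percentile of Scrublet scores and 1.04 without the 5% of cells with most UMIs. Leaving out the cells with most UMIs also turned the gut ratio to 1.17.

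The other aboral genes did not move as one between the stages. Of the 9 compared, 0 were past 2-fold higher and 1 was past 2-fold lower at 72 hpf, and of all genes 7.57% were past 2-fold higher and 8.40% lower. Their median ratio was 1.01, beside 0.944 for all genes. NK2.2 was the 1 past 2-fold lower, at 0.402, and SPEC1 stood at 0.571. spec2c, spec2d and Tbx2/3 had ratios of 1.19, 1.38 and 1.66, and Sdc had 1.01. EGF2 stood at 0.393. LOC582391, the gene most like ARS across cells, was at 0.763, and LOC100890099 at 0.677.

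With the gcm MO, ARS in remaining cells was slightly lower than with the control MO. The levels were 9017 CPM with the gcm MO and 10947 CPM with the control MO, a ratio of 0.824 (0.809 to 0.839). Of 4601 genes compared, 22.7% had a lower ratio and 61.9% were as far from 1. The median of all genes was 1.1, and relative to it ARS was at 0.751. The share of remaining cells at or above 1% was 39.9% (35.4 to 44.5) with the gcm MO and 44.5% (42.7 to 46.4) with the control MO, with overlapping intervals. At a limit of 2% of UMIs the shares were 11% with the gcm MO and 21.6% with the control MO.

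In pigment cells, which were 6 with the gcm MO and 201 with the control MO, the ratio of gcm MO to control MO was 0.211 (0.0574 to 0.543). In gut cells it was 2.51 (2.24 to 2.8), the only class with a higher level in the gcm MO library. The 4 gcm MO gut cells at or above 1% had 18242 CPM of ARS, 10488 CPM of SPEC1 and 612 CPM of Endo16, and the 63 others had 271, 213 and 9683 CPM. Without the gut cells at or above 1% in both libraries, the gut ratio was 0.423, on the other side of 1.

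The aboral genes had a median ratio of 1.18 between the MO libraries, beside 1.1 for all genes. None of the 9 compared was past 2-fold in either direction, whereas 6.30% of all genes were past 2-fold higher and 4.89% lower. SPEC1 had a ratio of 0.819, near that of ARS, and Sdc 0.85. Tbx2/3, IrxA and NK2.2 stood at 1.97, 1.8 and 1.41. The matrix gene egf1 was at 2.12 and EGF2 at 1.9, and MTa was at 0.657. LOC582391 stood at 0.929.

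Between the preparations at 48 hpf, ARS was higher in ectoderm-enriched uninjected embryos than in whole control MO embryos. In remaining cells it stood at 16840 CPM in the ectoderm-enriched library and 10947 CPM in the whole-embryo library, a ratio of 1.54 (1.53 to 1.55). Of 7104 genes compared, 80.2% had a lower ratio and 40.4% were as far from 1 in either direction. The ARS ratio was 2.77 (2.55 to 3.02) in pigment cells, 2.16 (1.97 to 2.37) in gut cells and 5.42 (4.48 to 6.59) in skeletogenic cells. Without the cells of these classes at or above 1% ARS it was 1.3 (1.16 to 1.45), 1.28 (1.13 to 1.44) and 1.33 (1.02 to 1.73), and 1 cell made the difference in the skeletogenic class. As a mean over cells of each cell's ARS share, the ratio in remaining cells was 1.32. SPEC1 had the opposite order, at a ratio of 0.606, and stood at 4117 CPM in the ectoderm-enriched library and 6796 CPM in the whole-embryo library. ARS UMIs per 100 SPEC1 UMIs were accordingly 409 in the ectoderm-enriched library and 161 in the whole-embryo library.

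Of the 9 aboral genes, 0 were past 2-fold in either direction between the preparations, beside 9.21% of all genes past 2-fold higher and 10.6% lower. Their median was 1.3, and that of all genes 0.979. Hbox7 stood at 1.95, spec2d at 1.49 and Dlx at 1.37, while Sdc was at 0.832 and MTa at 0.77. EGF2 and egf1 had ratios of 2.84 and 2.42. This comparison and that of the MO libraries share the control MO library, and this comparison and that of the stages share the uninjected 48 hpf library.

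**Figure D5:**
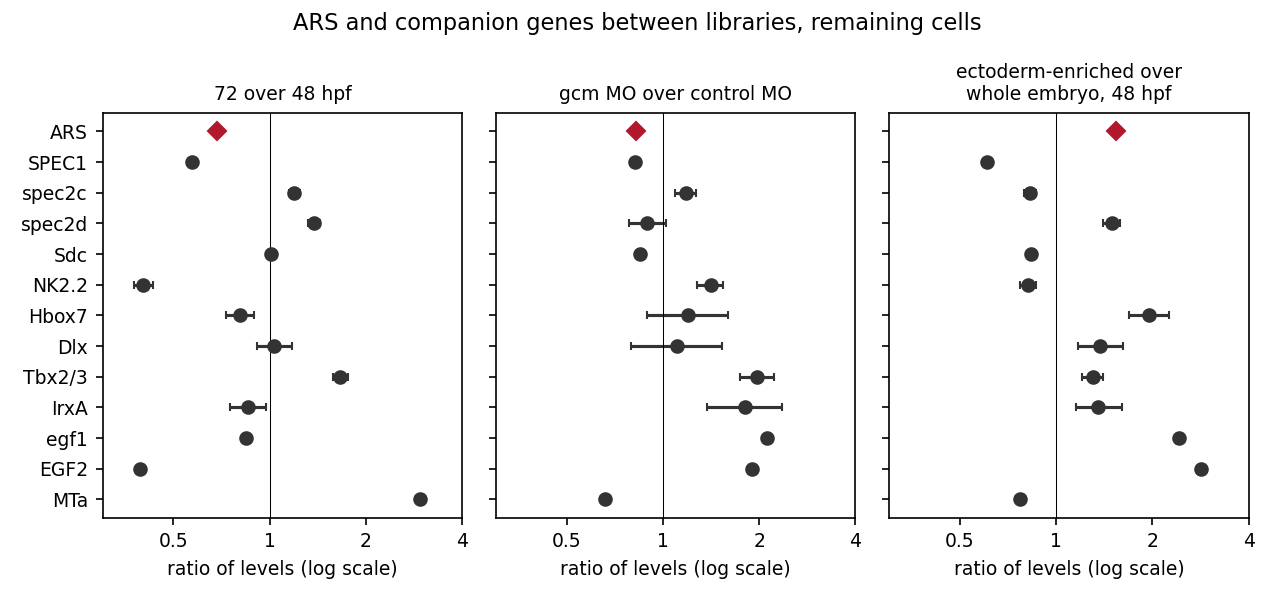
Ratio of levels in remaining cells, on a log scale, of ARS (diamonds) and 12 companion genes (circles) for 72 over 48 hpf, gcm MO over control MO, and ectoderm-enriched over whole embryo at 48 hpf. Bars are 95% intervals for counting error. ARS lies at 0.683, 0.824 and 1.54 from left to right, and SPEC1 at 0.571, 0.819 and 0.606.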

How the data were processed

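Deposited counts are UMIs per gene and cell, which the authors made with Cell Ranger on a custom Spur_4.2 reference from 10x 3' v3 libraries, without normalization. They also used Seurat 3.1.4, per the labels. Cells with 400 to 2500 genes were kept, as the study's methods state. Deposited UMI totals were 16804569 at 72 hpf, 17172515 at 48 hpf, 2298196 with the gcm MO and 9454334 with the control MO, and counting error is therefore largest with the gcm MO. Summed UMIs were expressed as CPM with exact Poisson 95% intervals, ratios have exact conditional binomial and shares Clopper-Pearson 95% intervals, and all of them cover counting error only (scipy 1.17.1 and numpy 2.4.6 under Python 3.11.15, with pandas 2.3.3; figures with matplotlib 3.10.9). With 1 library per condition no test was made, and past 2-fold is used as the call. Cells were thinned to 500 UMIs for shares and for likeness, which left out 0 cells. Calculations were tested on simulated data.

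Doublets were scored with Scrublet (scanpy 1.11.5) and kept. Calls were made for 0 of 6666 cells (72 hpf) and 4 of 5170 cells (48 hpf), so it did not work as a caller there, 12 of 539 with the gcm MO and 50 of 3323 with the control MO.

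Classes, lists and members were chosen with earlier results of these data known. Named genes were up to 5 of each list by UMIs, the 10 most and 5 least like ARS. The other aboral genes, CyI, CHRD and HMX were added after their values were seen. Of the lists, 11 of 13 aboral ectoderm, 4 of 5 ciliary band, 4 of 7 oral ectoderm, 3 of 11 apical plate and neuron, 2 of 4 extracellular matrix and 24 of 24 cell cycle genes were found under their symbols. Lists of sulfatases, sulfatase activators and ciliary genes need gene descriptions and were not used here. Gene symbols are those of the files, and biotypes come from RefSeq's Spur_5.0 table, so no coordinates are given. Genes with near-identical copies, such as the actin, metallothionein and SPEC families, may share reads, and their values are uncertain. Alternatives were other limits on genes, doublet filters, class thresholds, denominators, scalings, thinning and thresholds of the ARS share. Leaving MTa out of the totals, leaving out cells above the 95th percentile of Scrublet scores and leaving out pigment, gut and skeletogenic cells at or above 1% ARS were added after seeing the data.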

Additional observations from a re-analysis of the deposited data

Results flagged for a closer look

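The gcm MO over control MO ratio of ARS lay on opposite sides of 1 in gut cells (2.51) and in remaining cells (0.824). The difference between these ratios was not tested, since each condition had 1 library. The gut ratio rested on few cells, as 4 gcm MO gut cells held 447 of the 507 ARS UMIs of their class. It lay between 0.422 and 3.25 under the 14 alternatives run, and 2 of them turned its direction.

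ARS was also counted in the cells outside the gene limits, which enter no comparison. In cells with under 400 genes it stood at 6017 CPM at 72 hpf, 7700 CPM at 48 hpf, 6019 CPM with the gcm MO and 3602 CPM with the control MO. In cells with over 2500 genes it stood at 5255 CPM at 72 hpf, 12661 CPM at 48 hpf, 2281 CPM with the gcm MO and 1612 CPM with the control MO.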

How the results depend on the processing

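In remaining cells, the ratios 72 over 48 hpf (0.683), gcm MO over control MO (0.824) and ectoderm-enriched over whole embryo (1.54) kept their direction under the 13 alternatives run, within 0.647 to 0.725, 0.751 to 0.832 and 1.32 to 1.64. Values outside the counting interval follow, in that order of comparisons where 3 are given. They were 0.647, 0.769 and 1.52 with all deposited cells, 0.657, 0.768 and 1.52 without an upper limit on genes, 0.658, 0.788 and 1.32 as means over cells, 0.711, 0.772 and 1.64 with the 50 most abundant genes out of the totals, 0.648, 0.755 and 1.32 after thinning, and 0.723, 0.751 and 1.57 with scaling by the median of ratios. The 72 over 48 hpf ratio was 0.671 at 200 to 2500 genes, 0.676 with class thresholds doubled and 0.689 without the cells of highest Scrublet scores. It was 0.697, with 1.56 between preparations, without the 5% of cells with most UMIs, and 0.725, with 1.52 between preparations, with MTa out of the totals.

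The share of remaining cells at or above 1% was 33.8% at 72 hpf and 45% at 48 hpf with all deposited cells, 34% and 44.6% at 200 to 2500 genes, and 36.9% at 72 hpf with class thresholds doubled. A threshold of 0.5% gave 55.3% at 72 hpf, 58.1% at 48 hpf, 52.2% with the gcm MO and 55.8% with the control MO, and 2% gave 14.2%, 32.8%, 11% and 21.6%.

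Pigment cells stayed below remaining cells under the 12 alternatives run in each library. Their level relative to remaining cells at 72 hpf and 48 hpf was 0.362 and 0.283 with all deposited cells, 0.352 and 0.281 without an upper limit on genes, and 0.211 and 0.204 with class thresholds doubled. At 72 hpf, 48 hpf and with the control MO it was 0.22, 0.0852 and 0.0428 without the highest Scrublet scores, 0.249, 0.167 and 0.123 without the cells of most UMIs, 0.288, 0.198 and 0.0996 as a mean over cells, 0.258, 0.203 and 0.118 without the 50 most abundant genes, and 0.28, 0.202 and 0.11 after thinning. It was 0.0742 with the control MO without the cells Scrublet called, and 0.296 at 72 hpf with MTa out of the totals.

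Directions turned in 7 instances, in pigment, gut or skeletogenic cells. Without the class cells at or above 1% ARS, the 72 over 48 hpf ratio was 1.66 in pigment and 1.43 in skeletogenic cells. In pigment cells it was 1.78 without the highest Scrublet scores, and without the cells of most UMIs it was 1.04 in pigment cells and 1.17 in gut cells. The gcm MO over control MO ratio in gut cells was 0.422 with class thresholds doubled and 0.423 without gut cells at or above 1% ARS, where 4 gcm MO cells hold 447 of 507 UMIs. The cause of the other changes was not tested.

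No paired analysis was possible because each condition has 1 library. Leaving out a replicate was not possible for the same reason. The 2 skeletogenic and 6 pigment cells with the gcm MO set the limit on depth there, and shares of cells without ARS depend on the UMIs per cell.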
